A study of Mus musculus with 6 samples.

Results

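Dense-core vesicle and granin genes were followed in cells exposed to valproic acid (VPA) and in controls. The 10 genes are Ptprn and Ptprn2, the granins Chga, Chgb, Scg2, Scg3 and Scg5, and the peptide-processing enzymes Pcsk1, Pcsk2 and Cpe. Each gene was to be represented by the probe set annotated with its symbol alone, taking the one with the highest mean over the 6 arrays where there were several. Every measured gene had 1 such probe set, and 9 of the 10 genes had a value, among 19938 genes tested. No probe set carried the symbol of Pcsk2 in the platform annotation, so it had no value and entered only the search of upstream sequences. Probe sets were thus chosen by their mean level only where a choice existed, which was for none of these genes, and the genes by function. The set was drawn up with the increase of Ptprn already known from these arrays, so its values describe that increase and do not test it afresh.

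Per the titles and the series design, the samples were murine prostate cancer cells, 3 treated with VPA and 3 controls, with 1 Affymetrix mouse Gene 1.0 ST array for each. VPA is an antiepileptic drug that inhibits class I histone deacetylases. The sources used here give no dose, duration or cell line name. The other label fields contradict the titles: they call the VPA samples undifferentiated embryonic stem cells (Stra8, strain Stra8-EGFP/Rosa26) and the control samples differentiated embryonic stem cells (strain 129SV). If those fields were right, strain and cell state could not be told apart from VPA. The labels number the samples as biological replicates without saying what separates them. The p-values weigh each difference against the spread within these groups, and which variation that spread covers is not known.

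The values are log2 RMA values without detection calls, and medians over all probe sets were 7.15 to 7.18. Such values show differences of 1 gene between samples, whereas levels of different genes depend on their probes. Of the prostate markers, 6 of 8 were measured and none passed the test. Hoxb13, a homeobox gene of the prostate, averaged 7.93 ± 0.10 on the log2 scale in VPA arrays and 7.88 ± 0.01 in control arrays (SD, n = 3 each). Pbsn, the secretory protein probasin, averaged 3.50 ± 0.08 in VPA arrays and 3.55 ± 0.19 in control arrays. The epithelial keratin gene Krt8 averaged 7.44 ± 0.17 with VPA and 7.75 ± 0.31 in controls. Epcam, an epithelial adhesion molecule, averaged 6.14 ± 0.04 with VPA and 5.84 ± 0.06 in controls. Without detection calls, the presence or absence of these markers could not be decided. Sox2, a transcription factor of stem and neural progenitor cells, averaged 11.26 ± 0.28 with VPA and 11.58 ± 0.12 in controls (limma adjusted p = 0.26).

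Dense-core vesicles are the storage granules of neuroendocrine cells and neurons, which hold peptide hormones and neuropeptides until a stimulus releases them. Granins are acidic secretory proteins that aggregate in the trans-Golgi network and help granules to form. Inside the granule the convertases PC1/3 (Pcsk1) and PC2 (Pcsk2) cleave precursors at paired basic residues, carboxypeptidase E (Cpe) trims the ends, and the transmembrane proteins IA-2 (Ptprn) and phogrin (Ptprn2) span the granule membrane. Granins serve as tissue markers of neuroendocrine differentiation, also in prostate cancer.

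Of the 9 measured genes, Ptprn and Scg2 rose, none fell and 7 missed the threshold of limma's test, an adjusted p under 0.05. Unadjusted p-values under 0.05 were found for 3 genes with higher VPA values, against 9.82% of all genes, and for 0 genes with lower ones, against 8.3%. Over all 19938 genes, 1.71% rose and 0.632% fell. The median log2 difference, VPA minus control, was 0.01 over the 9 genes and -0.04 over all genes. Higher VPA values without overlap were found for 3 of the 9 genes, Ptprn, Scg2 and Pcsk1, against 11.1% of all genes. Chgb was the 1 gene with all VPA values below all control values, against 12% of all genes. More cells that express a gene and more RNA per cell cannot be told apart in such bulk samples.

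**Figure D1:**
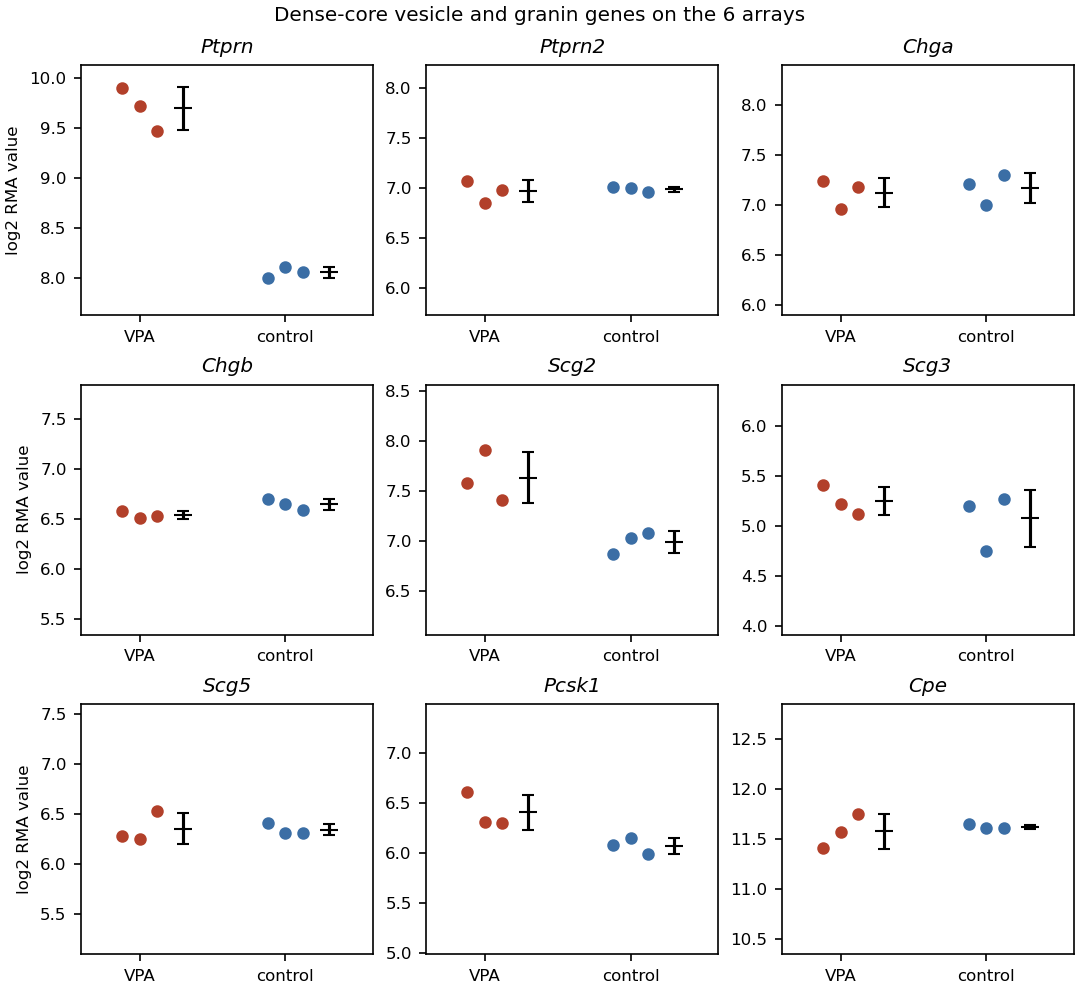
Log2 RMA values of the 9 measured genes on the 3 VPA and 3 control arrays (points), with the mean and SD of each group beside them; every panel spans the same 2.5 log2 units. Ptprn shows a wide gap between the groups, Scg2 and Pcsk1 narrower ones, and in Ptprn2, Chga, Scg3, Scg5 and Cpe the groups overlap.

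Ptprn encodes IA-2, a receptor-like tyrosine phosphatase without phosphatase activity that lies in the granule membrane and is an autoantigen of type 1 diabetes. Its log2 values were 9.90, 9.72 and 9.47 in the VPA arrays, against 7.99, 8.11 and 8.05 in the control arrays (probe set 10355813). The lowest VPA value lay 1.36 above the highest control value. The means were 9.70 ± 0.21 with VPA and 8.05 ± 0.06 in controls (SD, n = 3 each), which is a log2 difference of 1.64 (SE 0.114). As a ratio this is 3.13-fold (95% interval 2.62 to 3.73). Ptprn had the smallest p of all genes (limma adjusted p = 0.000962) and the difference of rank 3 from the top. It stayed past the threshold whichever array was left out, with log2 differences from 1.54 to 1.76 and adjusted p from 0.000706 to 0.0127. Without moderation of the variances across genes its adjusted p was 0.183, from an unadjusted p of 0.000214.

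Ptprn2 encodes phogrin, the paralog that shares the granule membrane with IA-2. Its log2 values were 7.07, 6.85 and 6.98 in the VPA arrays and 7.01, 7.00 and 6.96 in the control arrays, so the control values lay inside the range of the VPA values. The difference was -0.02 (SE 0.0881, limma adjusted p = 0.939), with a 95% interval from -0.21 to 0.18. The interval of Ptprn, from 1.39 to 1.90, lay above it.

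Among the granins, Scg2 rose and the other 4 did not pass. Scg2 encodes secretogranin II, the precursor of the peptide secretoneurin. Its log2 values were 7.58, 7.91 and 7.41 in the VPA arrays and 6.87, 7.03 and 7.08 in the control arrays. All VPA values exceeded all control values, with a gap of 0.33 between the nearest. VPA minus control was 0.64 on the log2 scale (SE 0.129), which is 1.56-fold (95% interval 1.28 to 1.91), at a limma adjusted p of 0.0392. The call was lost when any array but VPA replicate 3 was left out. The adjusted p was 0.117 without VPA replicate 1, 0.107 without VPA replicate 2, 0.153 without control replicate 1, 0.0594 without control replicate 2 and 0.0942 without control replicate 3. Without VPA replicate 3 it was 0.0162. With all 35556 probe sets tested it was 0.189, and without moderation 0.266. The log2 difference stayed between 0.50 and 0.75 in these comparisons.

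Chga and Chgb encode chromogranins A and B, widely used tissue markers of neuroendocrine cells. Chga had log2 values of 7.24, 6.96 and 7.18 in VPA arrays and 7.21, 7.00 and 7.30 in control arrays. The groups overlapped, and the difference was -0.05 (SE 0.111, limma adjusted p = 0.847, 95% interval from -0.30 to 0.20). Chgb had log2 values of 6.58, 6.51 and 6.53 in VPA arrays and 6.70, 6.65 and 6.59 in control arrays. Every VPA value was lower, with the nearest values 0.011 apart, and the difference of -0.11 (SE 0.0809, adjusted p = 0.508) had an interval from -0.29 to 0.07. The upper ends of both intervals lay below the 0.35 at which the interval of Scg2 began.

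Scg3 encodes secretogranin III, which binds chromogranin A to the cholesterol-rich granule membrane. Its log2 values were 5.40, 5.22 and 5.12 with VPA and 5.20, 4.75 and 5.27 in controls. Control replicate 2 was the lowest and the others intermingled, at a difference of 0.18 (SE 0.141, limma adjusted p = 0.541, 95% interval from -0.14 to 0.49). It was the 1 measured gene below a log2 value of 6 on every array. Ptprn2, Chgb, Scg5 and Pcsk1 also lay below the median over all probe sets on every array, and Chga lay near it. Without detection calls, the presence of these transcripts could not be decided, also where the difference was near 0. Scg5 encodes 7B2, the chaperone that PC2 needs to mature. Its values were 6.28, 6.26 and 6.53 with VPA and 6.41, 6.31 and 6.31 in controls, with VPA replicate 3 the highest. The difference was 0.01 (SE 0.0985, adjusted p = 0.955, interval from -0.21 to 0.23).

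Neither measured processing enzyme passed the test. Pcsk1, the convertase PC1/3, had log2 values of 6.61, 6.31 and 6.30 in the VPA arrays and 6.08, 6.15 and 5.99 in the control arrays. The groups did not overlap, with 0.15 between the nearest values. VPA minus control was 0.34 on the log2 scale (SE 0.107), which is 1.26-fold (95% interval 1.07 to 1.49). Its unadjusted p was 0.0112 and its limma adjusted p 0.141. Leaving out VPA replicate 1, the highest, took the difference to 0.23.

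Cpe encodes carboxypeptidase E, which removes the basic residues left by the convertases. Its log2 values were 11.41, 11.57 and 11.76 with VPA and 11.65, 11.61 and 11.61 in controls. The control values lay close together, within the wider range of the VPA values. The difference was -0.05 (SE 0.101, limma adjusted p = 0.84), with an interval from -0.27 to 0.18.

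**Figure D2:**
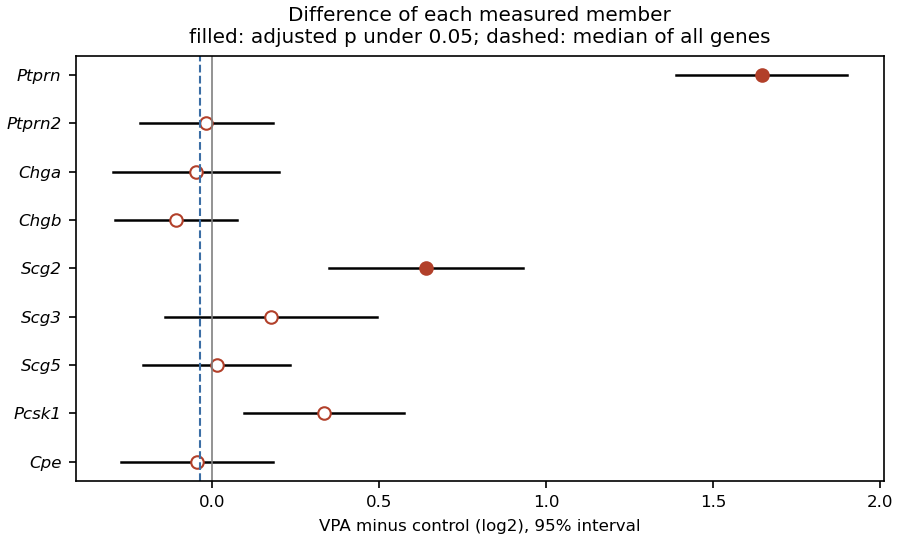
Log2 difference, VPA minus control, of the 9 measured genes, with the 95% interval of limma's moderated test; filled points passed at an adjusted p under 0.05 and the dashed line is the median of all 19938 genes. Ptprn stands at 1.64 and Scg2 at 0.64, the interval of Pcsk1 begins at 0.10, and the other 6 intervals include 0.

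**Figure D3:**
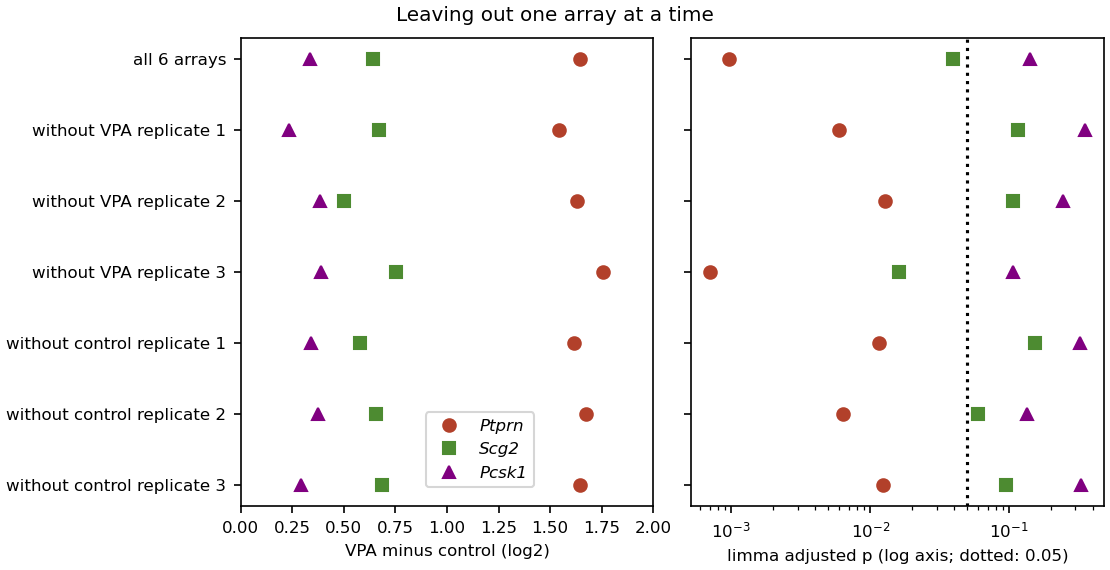
Left, log2 difference of Ptprn, Scg2 and Pcsk1 with all 6 arrays and with each array left out; right, limma's adjusted p of the same fits on a log axis, with 0.05 dotted. Ptprn stays left of the line throughout, Scg2 in 2 of the 7 fits and Pcsk1 in none.

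Upstream sequences are shown for the 3 genes whose VPA values were higher without overlap and for the chromogranins, which were not, so that they can be read side by side. They are the 250 bases before an annotated start, from RefSeq on build GRCm38.p6, 5′ to 3′ in the direction of the gene. For Scg2, Chga and Chgb that start was the first base of the annotated gene span. The windows of Ptprn and Pcsk1 lay inside the gene span, whose outer bounds were chr1:75264497 and chr13:75089420. Distances for Ptprn and Pcsk1 therefore count from a start within the gene. The table held 10 such windows for 9 of the 10 genes, all but Cpe, with 2 for Ptprn, of which 1 is shown. Capitals mark TGACG on either strand, the core of the cyclic AMP response element (CRE) that the factor CREB binds. CREs are well described in granin promoters.
Ptprn, chr1:75264209-75264458, minus strand: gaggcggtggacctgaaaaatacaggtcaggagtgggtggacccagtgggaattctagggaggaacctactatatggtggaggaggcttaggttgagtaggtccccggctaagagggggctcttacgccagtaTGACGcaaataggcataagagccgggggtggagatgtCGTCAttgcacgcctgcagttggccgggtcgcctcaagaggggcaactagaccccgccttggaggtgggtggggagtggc
Scg2, chr1:79440027-79440276, minus strand: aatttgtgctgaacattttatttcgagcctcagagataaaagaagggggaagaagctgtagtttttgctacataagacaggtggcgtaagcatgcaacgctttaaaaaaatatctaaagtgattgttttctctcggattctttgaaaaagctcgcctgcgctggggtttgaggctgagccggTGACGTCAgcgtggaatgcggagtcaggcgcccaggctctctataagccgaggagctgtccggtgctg
Pcsk1, chr13:75089607-75089856, plus strand: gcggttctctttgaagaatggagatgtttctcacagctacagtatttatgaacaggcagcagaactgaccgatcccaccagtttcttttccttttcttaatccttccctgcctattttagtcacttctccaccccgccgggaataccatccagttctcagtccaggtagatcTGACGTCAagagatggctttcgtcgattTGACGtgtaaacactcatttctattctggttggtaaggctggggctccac
Chga, chr12:102554691-102554940, plus strand: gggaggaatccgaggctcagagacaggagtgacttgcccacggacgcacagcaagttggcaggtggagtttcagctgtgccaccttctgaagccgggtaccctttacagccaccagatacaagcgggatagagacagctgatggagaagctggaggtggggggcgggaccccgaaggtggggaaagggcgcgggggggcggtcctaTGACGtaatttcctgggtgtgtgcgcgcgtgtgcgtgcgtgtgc
Chgb, chr2:132781392-132781641, plus strand: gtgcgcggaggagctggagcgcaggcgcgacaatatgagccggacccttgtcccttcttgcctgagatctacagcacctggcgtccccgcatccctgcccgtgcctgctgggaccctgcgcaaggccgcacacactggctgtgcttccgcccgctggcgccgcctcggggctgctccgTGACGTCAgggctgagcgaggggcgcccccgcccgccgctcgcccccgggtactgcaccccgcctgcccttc

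The full CRE, TGACGTCA, stood once in the windows of Scg2, Pcsk1 and Chgb, 68, 78 and 72 bases before the start, and 1.55% of all 32851 windows hold it. Scg2 rose, Pcsk1 did not pass and Chgb had a difference of -0.11, so the element occurred with each of these outcomes. The shown Ptprn window had the core at 2 separate places, 117 and 80 bases before the start, without the full element. The core alone, which overlaps the full element, occurred in windows of 8 of these 9 genes, all but Ptprn2, and in 17.8% of all windows.

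The GC box GGGCGG was found in windows of 6 of these 9 genes and in 32.7% of all windows, both strands counted. For Ptprn it lay in the window not shown. The shown windows were 59.2% G and C for Ptprn, 48% for Scg2, 46.8% for Pcsk1, 62.4% for Chga and 72.8% for Chgb. The median over all windows was 52.4%. Both parts of the RE1 element of the neuronal repressor REST, TTCAGCACC and GGACAGC, were searched on both strands. The first was in none of these windows, and 0.301% of all windows hold it. The second, which 5.28% of all windows hold, stood once in the window of Scg2 and in no other of these windows. These matches describe letters in short windows and carry no measurement of binding.

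Genes of the wider pathway were read from 6 lists of granule biogenesis and cargo, vesicle docking and exocytosis, peptide precursors, other convertases, carboxypeptidase relatives and other receptor phosphatases. Of 132 measured genes 6 rose, which is 4.55% against 1.71% of all genes, none fell and 126 did not pass. The lists were chosen with earlier results of these data known, so such shares are descriptive and no test of enrichment. Unadjusted p-values under 0.05 went with higher VPA values in 19 of them and with lower ones in 9, against 9.82% and 8.3% of all genes. The median difference was -0.04 over these genes, as over all genes.

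Docking and exocytosis held 4 of the 6, among 30 measured genes (13.3%), with a list median of 0.06. Syt1, the calcium sensor synaptotagmin 1, had log2 values of 11.39, 11.35 and 11.36 with VPA and 10.43, 10.64 and 10.70 in controls, a difference of 0.78 (SE 0.0946, limma adjusted p = 0.00973). Unc13b, the vesicle priming factor Munc13-2, had values of 8.25, 8.08 and 7.89 with VPA and 7.15, 7.17 and 7.25 in controls, a difference of 0.88 (SE 0.104, adjusted p = 0.00973). In both genes all VPA values exceeded all control values.

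Rab3b and Rab3d encode small GTPases of secretory vesicles. Rab3b had log2 values of 9.55, 9.22 and 9.01 with VPA and 8.22, 8.52 and 8.18 in controls, a difference of 0.95 (SE 0.146, limma adjusted p = 0.0161). Rab3d had 8.83, 8.87 and 8.87 with VPA and 8.19, 8.38 and 8.09 in controls, a difference of 0.63 (SE 0.0953, adjusted p = 0.0154). Neither gene's groups overlapped. Kif1a, the kinesin that carries dense-core vesicles along axons, is named after its values were seen. Its values were 8.77, 7.83 and 7.76 with VPA and 7.26, 7.01 and 7.05 in controls, and its difference of 1.02 (SE 0.231) had an adjusted p of 0.0555. VPA replicate 1 was the highest, and without it the difference was 0.69. Its adjusted p was 0.0248 without VPA replicate 3 and 0.0515 to 0.158 without each of the other arrays. It was 0.0442 with genes under a log2 value of 6 filtered out, 0.0489 with a second quantile normalization, 0.0487 with arrays centred on their medians and 0.0471 with array weights. Cadps2, a vesicle priming protein also named after its values were seen, had the widest difference below 0 in this list, at -0.42 (adjusted p = 0.14).

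In granule biogenesis and cargo, 1 of 25 measured genes rose (4%). Hid1, which acts at the trans-Golgi network in the formation of dense-core vesicles, had log2 values of 9.95, 9.76 and 9.43 with VPA and 8.55, 9.15 and 8.49 in controls, a difference of 0.98 (SE 0.185, limma adjusted p = 0.0298). Its groups did not overlap, with control replicate 2 the nearest to the VPA arrays. Further genes, named after their values were seen, were the granin-like Pcsk1n and Vgf and the amidating enzyme gene Pam. Pcsk1n, whose product proSAAS inhibits PC1/3, had values of 11.11, 11.04 and 10.84 with VPA and 10.46, 10.77 and 9.94 in controls, a difference of 0.60 (SE 0.182, adjusted p = 0.123). Without control replicate 2 its adjusted p was 0.0405. Vgf, the precursor of several neuropeptides, differed by 0.08 and Pam by -0.09 (adjusted p 0.704 and 0.634).

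Of 42 measured precursors of neuropeptides and peptide hormones, 1 rose (2.38%). Nppb, the precursor of brain natriuretic peptide, had log2 values of 8.72, 8.78 and 9.36 with VPA and 7.70, 7.63 and 7.96 in controls, a difference of 1.19 or 2.28-fold (SE 0.167, limma adjusted p = 0.0139). The groups did not overlap, and the list median was -0.05. The other 3 lists had no member past the threshold. The widest differences among the other convertases were -0.41 for Pcsk6 and -0.19 for Pcsk5. Among the carboxypeptidases they were 0.37 for Cpm and -0.24 for Cpn1, and among the receptor phosphatases 0.50 for Ptprs and -0.36 for Ptprv. In this order, the limma adjusted p of these genes were 0.101, 0.368, 0.196, 0.174, 0.0606 and 0.0948. Without VPA replicate 3 the adjusted p was 0.0187 for Pcsk6, 0.0431 for Ptprs and 0.0476 for Ptprv, and that of Ptprs was 0.0254 without control replicate 2. Ptprs also passed with the filter at a log2 value of 6 (0.0461), with an intensity trend and robust prior (0.0372) and with array weights (0.0334).

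The 6 calls in these lists also moved with single arrays. Without control replicate 1 none of them passed, at adjusted p of 0.0509 for Syt1, 0.0515 for Unc13b, 0.0757 for Rab3b, 0.0733 for Rab3d, 0.131 for Hid1 and 0.0656 for Nppb. Rab3b, Rab3d and Hid1 did not pass without VPA replicate 1 (0.0564, 0.0602 and 0.12), VPA replicate 2 (0.062, 0.068 and 0.113) or control replicate 3 (0.0656, 0.0574 and 0.1). All 6 passed without VPA replicate 3 and without control replicate 2. With all 35556 probe sets tested or without moderation 0 passed. There 17 and 14 of the 132 genes were higher at an unadjusted p under 0.05. The share of all genes at that unadjusted p was not counted in these settings, so the counts have no background.

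**Figure D4:**
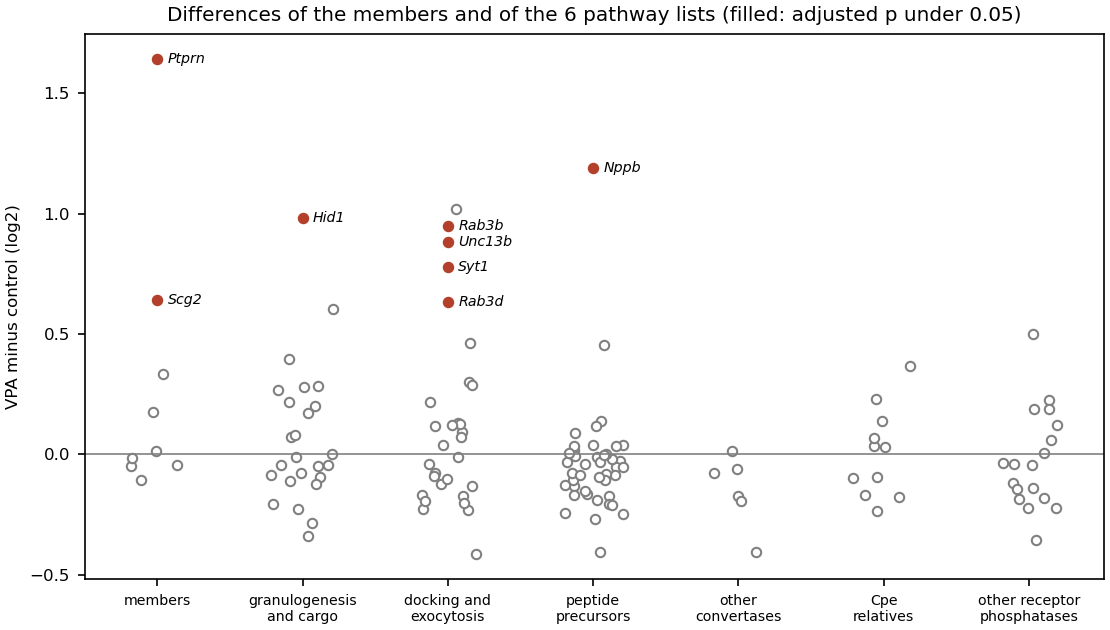
Log2 difference, VPA minus control, of each of the 9 measured genes and of the 132 measured genes of the 6 pathway lists; named filled points passed limma's test at an adjusted p under 0.05, and open points, spread sideways for legibility, did not. Filled points lie in 3 of the 6 lists, 4 of them in docking and exocytosis, and all are above 0.

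Of 11 measured markers of neuroendocrine and neuronal cells 3 rose, Syn1, Uchl1 and Syp, which is 27.3% against 1.71% of all genes, and none fell. Syn1 and Uchl1 had the differences of rank 1 and 2 from the top of all genes. The list was chosen with earlier results of these data known, so its share is descriptive and no test of enrichment. The median difference over the list was 0.25, against -0.04 over all genes. The mean log2 value over the list was 7.97 to 8.27 in the VPA arrays, against 7.57 to 7.70 in the control arrays. Syn1 differed by 1.85 and Uchl1 by 1.75 (limma adjusted p 0.0146 and 0.0139), so these genes and Syp carried most of the shift in that mean. Syp encodes synaptophysin, a protein of small vesicles, and differed by 0.90 (SE 0.191, limma adjusted p = 0.0456). It passed without VPA replicate 3, at 0.013, and did not pass without any other single array, at 0.0734 to 0.17. Syn1 and Uchl1 passed without VPA replicate 3 or control replicate 2 and not without the other arrays, where their adjusted p reached 0.0703 and 0.0608. Unadjusted p-values under 0.05 went with higher VPA values in 6 of the 11 and with lower ones in 0, against 9.82% and 8.3% of all genes. Tubb3, Celf3 and Ncam1 differed by 0.45, 0.36 and 0.25 and did not pass (limma adjusted p 0.055, 0.111 and 0.253). Eno2 and Foxa2 differed by 0.14 and -0.09 (adjusted p 0.721 and 0.631). The neuroendocrine transcription factor genes Insm1 and Neurod1 differed by -0.07 each (adjusted p 0.807 and 0.695). Snap25, a protein of the vesicle fusion machinery, differed by 0.01 (adjusted p = 0.96). Of 5 leukocyte markers Coro1a rose and Cd53 fell, 20% each way against 1.71% and 0.632% of all genes. Their limma adjusted p reached 0.0888 and 0.142 when single arrays were left out. Of 6 fibroblast markers Thy1 alone rose (16.7%), by 0.99, and the list median was 0.11. Col3a1 went the other way, at -0.46, with all VPA values below all control values, and did not pass (limma adjusted p = 0.159). Of 7 epithelial, 4 endothelial, 6 pluripotency and 4 germ cell markers none passed, and 2, 1, 2 and 0 had an unadjusted p under 0.05. The epithelial ones were Krt19 and Epcam, with differences of 0.41 and 0.29, and the pluripotency ones Pou5f1 and Sox2, with -0.36 and -0.32. All 6 pluripotency markers had a lower mean in the VPA arrays, as had 11684 of all 19938 genes. Their median difference was -0.19 and the smallest -0.12. Zfp42 averaged 4.22 with VPA and 4.36 in controls, and Pou5f1 5.27 and 5.63. Without detection calls, the presence of these transcripts could not be decided. Some label fields call the VPA samples undifferentiated stem cells, and which fields are right was not tested. The part of cell composition in the differences of Ptprn and Scg2 was not tested.

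The genes with the pattern most like that of Ptprn were taken by Pearson's r of the log2 values over the 6 arrays, among 1122 genes with an SD of at least 0.3. They were Tubb2b (r = 0.997), Ahcyl2 (0.997), Tspan2 (0.995), Ero1b (0.994) and Unc13b (0.994). The 6 arrays fall into 2 groups, so such values mostly reflect the difference between them. Tubb2b encodes a beta-tubulin of developing neurons, Tspan2 a tetraspanin and Ero1b an oxidase of disulfide formation in the endoplasmic reticulum. Tubb2b differed by 0.63, Ahcyl2 by 0.77, Tspan2 by 1.14 and Ero1b by 1.12 (limma adjusted p 0.0139, 0.00859, 0.00719 and 0.00702). Without control replicate 1 the adjusted p of Tubb2b and Ahcyl2 were 0.0703 and 0.0509. Tubb2b also missed the threshold without VPA replicate 1, VPA replicate 2 or control replicate 3 (0.058, 0.0613 and 0.0534). With Ptprn, r was 0.92 for Scg2 and 0.88 for Pcsk1, and for the other measured genes it ran from -0.79 for Chgb to 0.46 for Scg3.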

How the data were processed

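Total RNA was isolated with Trizol, treated with DNase I and labelled with biotin for the array, per the labels' protocols. The authors' deposited log2 values come from RMA, and the submitters' processing notes also name Affymetrix Expression Console. The sources used here give neither program versions nor a genome build. RMA equalises the arrays' distributions, so a shift of most transcripts would not show. Values were used as deposited.

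Of 35556 probe sets, 21789 had 1 symbol in the platform annotation, and the one with the highest mean was kept per gene, which gave 19938 genes. No filter on low values was set. Groups and replicate numbers came from the titles. VPA was compared with control with limma 3.58.1 (lmFit, eBayes; R 4.3.3), two-sided, with Benjamini-Hochberg adjustment over all genes. Precision is limited by the number of arrays (3 a group, median SE 0.101). The code was tested on simulated data. Genes are named by a rule: the 10 genes, the called genes of each list or else its 2 with the widest differences, and the 5 most like Ptprn. Others are marked. The genes and lists were chosen with earlier results of these data known. Alternatives were other normalizations, priors, array weights, a replicate block, a filter, probe set choices, a stricter threshold and leaving out each array.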

Additional observations from a re-analysis of the deposited data

How the results depend on the processing

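Each value was recomputed under up to 16 alternatives. The filter at a log2 value of 6 kept 8 of the 9 genes, all but Scg3. Of 134 values of the 9 genes under them, 117 kept their direction and their side of the threshold, 8 no longer passed and 9 changed sign. The 8 were Scg2 in 7 settings and Ptprn in 1. The sign changed for genes near 0 that passed nowhere. Ptprn2 was 0.0057 with a second quantile normalization, and Scg5 -0.0032 with array weights. With arrays left out singly, Ptprn2 ran from -0.069 to 0.042, Chga from -0.13 to 0.036, Scg5 from -0.075 to 0.064, Cpe from -0.13 to 0.039 and Vgf, of the lists, from -0.011 to 0.13.

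The number of the 9 genes that rose was 2. It was 0 without moderation of the variances, where 3 were higher at an unadjusted p under 0.05, 1 with all probe sets of the table tested, 1 at an adjusted p under 0.01, and 1 to 2 with single arrays left out. None fell in any setting run; at an unadjusted p under 0.05, 0 were lower with limma's moderated test and 1 without moderation. Of the listed pathway genes 6 rose. That count was 0 without moderation and 0 with all probe sets, with 14 and 17 higher at an unadjusted p under 0.05. It was 2 at the stricter threshold and 0 to 9 with single arrays left out, and 0 to 3 then fell. In the alternative settings the share of all genes at an unadjusted p under 0.05 was not counted. Such counts therefore have no background, for the 9 genes as for the listed ones. Over all genes, 0 passed without moderation. With every probe set tested, 35556 features in place of 19938 shared the adjustment and the variance prior, and 2 features passed. What changed the counts, with all probe sets or in the other settings, was not tested.

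The labels do not say whether same-numbered samples were pairs, and the main fit did not pair them. Deviations from the group means correlated over the genes at 0.0841, 0.451 and 0.284 between same-numbered samples. Between differently numbered ones they correlated at -0.429 to 0.2, and 5 of 6 arrays correlated best with their own number. What these correlations come from was not tested. With the replicate number as a block, 2 of the 9 genes rose, while 11 of the listed genes rose and 1 fell. Kif1a, Ptprs and Pcsk1n were then among those that rose (adjusted p 0.00672, 0.0231 and 0.0211), and Pcsk6 fell (0.042). Over all genes 1199 then passed, against 467.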
